A study of Homo sapiens with 36 samples.

Results

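The response of HT29 cells to the high dose of a water extract of Aconiti Lateralis Radix Preparata (ACD), a processed monkshood root, was examined across all genes in 6 of the 36 libraries of the series. HT29 is a human colorectal adenocarcinoma line. The libraries were chosen by their labels: 3 came from cells given 500 µg/mL of extract for 24 h and 3 from vehicle-treated cells of the same batch, batch B. The vehicle was DMSO, at 0.1% according to the labels, and the study's methods describe it as phosphate-buffered saline with 2% DMSO, added in a small volume. In the series the same extract was also given to HT29 at 20 and 100 µg/mL (low and medium dose) and to SW1783, an astrocytoma line, with 3 libraries per group. The study set out to learn whether brain-derived or intestine-derived cells respond more to ACD. Nothing in the labels says whether the replicates were separate cultures, so the p-values measure the spread between these libraries, which may be technical.

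Several cellular programmes that recur below have well-known transcriptional readouts. The aryl hydrocarbon receptor (AhR) is a ligand-activated transcription factor that binds many plant and combustion products and induces xenobiotic-metabolising enzymes of the CYP1 family, a response that intestinal epithelium shows to dietary compounds. NF-kB drives chemokine genes in epithelial cells, and chemokines such as CXCL1 and CXCL8 attract neutrophils. The integrated stress response, through the transcription factor ATF4, raises genes for amino acid synthesis and import, and NRF2 raises genes for glutathione synthesis and quinone reduction. The mitochondrial genome encodes a pair of ribosomal RNAs and a small set of respiratory chain mRNAs, which are cut from long shared transcripts.

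Promoter windows of 6 of the genes on which the results turn are shown because these genes belong to lists in which several members rose. They are RefSeq windows of build GRCh38.p14, from 250 bases before to 50 bases after the start of the gene, 5′ to 3′ on the strand of the gene, and capitals mark the motif searched for on both strands. CYP1A1 (chr15:74725479-74725778, minus strand) and TIPARP (chr3:156674340-156674639, plus strand) hold the core GCGTG bound by the AhR. CXCL1 (chr4:73869143-73869442, plus strand) and CCL20 (chr2:227813592-227813891, plus strand) hold an NF-kB motif, and in CXCL1 a pair of overlapping matches is marked as 1 run. CHAC1 (chr15:40953221-40953520, plus strand) and ASNS (chr7:97872359-97872658, minus strand) hold TGATGNAA, an element of genes that respond to amino acid shortage. TIPARP, CHAC1, ASNS and the TGATGNAA motif were chosen after the values had been seen.
CYP1A1: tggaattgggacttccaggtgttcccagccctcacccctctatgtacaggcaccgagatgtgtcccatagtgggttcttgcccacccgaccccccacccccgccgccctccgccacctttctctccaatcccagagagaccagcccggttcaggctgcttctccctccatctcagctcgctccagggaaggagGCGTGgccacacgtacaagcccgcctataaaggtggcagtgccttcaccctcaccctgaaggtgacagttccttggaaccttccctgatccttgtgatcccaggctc
TIPARP: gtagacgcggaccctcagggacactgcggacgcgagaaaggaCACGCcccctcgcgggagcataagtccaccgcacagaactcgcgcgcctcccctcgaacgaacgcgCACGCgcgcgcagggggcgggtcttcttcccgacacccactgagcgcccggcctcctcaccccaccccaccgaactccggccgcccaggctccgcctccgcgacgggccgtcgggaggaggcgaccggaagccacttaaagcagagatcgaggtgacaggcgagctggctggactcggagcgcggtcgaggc
CXCL1: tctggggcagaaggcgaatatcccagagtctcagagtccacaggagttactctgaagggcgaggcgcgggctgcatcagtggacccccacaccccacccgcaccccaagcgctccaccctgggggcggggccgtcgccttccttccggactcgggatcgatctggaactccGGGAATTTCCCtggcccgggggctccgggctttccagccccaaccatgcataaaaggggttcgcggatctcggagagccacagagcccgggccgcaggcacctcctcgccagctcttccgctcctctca
CCL20: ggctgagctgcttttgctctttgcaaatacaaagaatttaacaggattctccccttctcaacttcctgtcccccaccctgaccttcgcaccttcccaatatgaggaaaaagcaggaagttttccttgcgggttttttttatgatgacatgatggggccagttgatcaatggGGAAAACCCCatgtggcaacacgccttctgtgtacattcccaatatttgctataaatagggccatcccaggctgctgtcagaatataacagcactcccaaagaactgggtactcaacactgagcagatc
CHAC1: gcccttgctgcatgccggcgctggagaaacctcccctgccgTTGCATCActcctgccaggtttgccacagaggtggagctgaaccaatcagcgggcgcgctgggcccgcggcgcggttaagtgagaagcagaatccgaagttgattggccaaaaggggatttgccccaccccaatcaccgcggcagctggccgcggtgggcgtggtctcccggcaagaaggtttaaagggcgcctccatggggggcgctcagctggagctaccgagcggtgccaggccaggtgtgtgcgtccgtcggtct
ASNS: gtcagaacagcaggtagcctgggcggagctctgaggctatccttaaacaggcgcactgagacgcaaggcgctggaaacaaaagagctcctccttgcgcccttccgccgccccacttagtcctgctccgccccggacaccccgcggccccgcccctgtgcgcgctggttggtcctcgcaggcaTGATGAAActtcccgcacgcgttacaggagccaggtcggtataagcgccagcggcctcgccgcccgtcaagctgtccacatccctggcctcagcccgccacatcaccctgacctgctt

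The motif matches are descriptions of letters and not of bound sites. GCGTG begins 57 bases before the start in CYP1A1 and 208 and 142 bases before it in TIPARP. It was found in 10 of the 16 windows of tested AhR-list genes, 6 of them among the 8 that rose, in 49.3% of the windows of all genes that rose, in 49.6% of the 11269 windows of tested genes and in 36.3% of all 27305 windows. The NF-kB motif was found in 8 of 12 windows of tested chemokine genes, 6 of them among the 7 that rose, in 14.0% of the windows of all genes that rose, in 6.58% of windows of tested genes and in 5.72% of all. CXCL8 was the gene without a match among those that rose. TGATGNAA, 209 bases before the start in CHAC1 and 68 in ASNS, was found in 6 of 30 windows of tested amino acid stress genes, 4 of them among the 15 that rose, in 9.33% of the windows of all genes that rose, in 1.75% of windows of tested genes and in 3.67% of all.

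Total counts were 18260755 to 31811972 in the vehicle libraries and 15941255 to 33866644 at the high dose, where replicate 2 was the shallowest. The libraries carried the colorectal epithelial markers at a summed 11262 to 12866 CPM (counts scaled to equal library totals) in vehicle and 10639 to 11464 at the high dose, and none of these 10 markers was absent. Mesenchymal markers, which also mark SW1783, summed to 3.45 to 4.49 and 3.39 to 4.31 CPM, leukocyte markers to 1714 to 1834 and 1190 to 1685 CPM, and endothelial markers to 50.1 to 55.4 and 59.5 to 66.1 CPM. The leukocyte sum was nearly all LYZ, while PTPRC, the defining leukocyte gene, was at 0.031 CPM or less. The endothelial sum was nearly all ESAM, at 46.8 to 62.9 CPM, while KDR and ERG had 0 in every library. Replicate 2 of the high dose stood apart from replicates 1 and 3. Totals of DEGs and counts of some lists are therefore given with and without it. The other list counts include it, and several of them changed when it was left out. These are bulk libraries, in which a change in the number of cells of a state and a change of RNA per cell cannot be told apart.

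At the high dose 479 of 16652 tested genes were differentially expressed (DEGs), that is, had an adjusted p-value under 0.05 in the Wald test of DESeq2 and a change of more than 1.5-fold. This is 2.88% of the tested genes, with 212 genes (1.27%) higher and 267 (1.6%) lower than in vehicle. Among 12904 tested nuclear protein-coding genes 181 DEGs rose and 140 fell. The 2293 tested lncRNA genes fell more often than they rose, with 78 down and 17 up. In 467 DEGs the normalized counts of the 3 treated and the 3 vehicle libraries did not overlap. Without such a test, 10.3% of tested genes lay wholly above and 11% wholly below the vehicle. Without replicate 2 of the high dose there were 569 DEGs (4.1%), 256 up (1.85%) and 313 down (2.26%), of which 371 were among the 479. The median log2 fold change over all tested genes was 0.006, and -0.009 without that replicate.

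**Figure D1:**
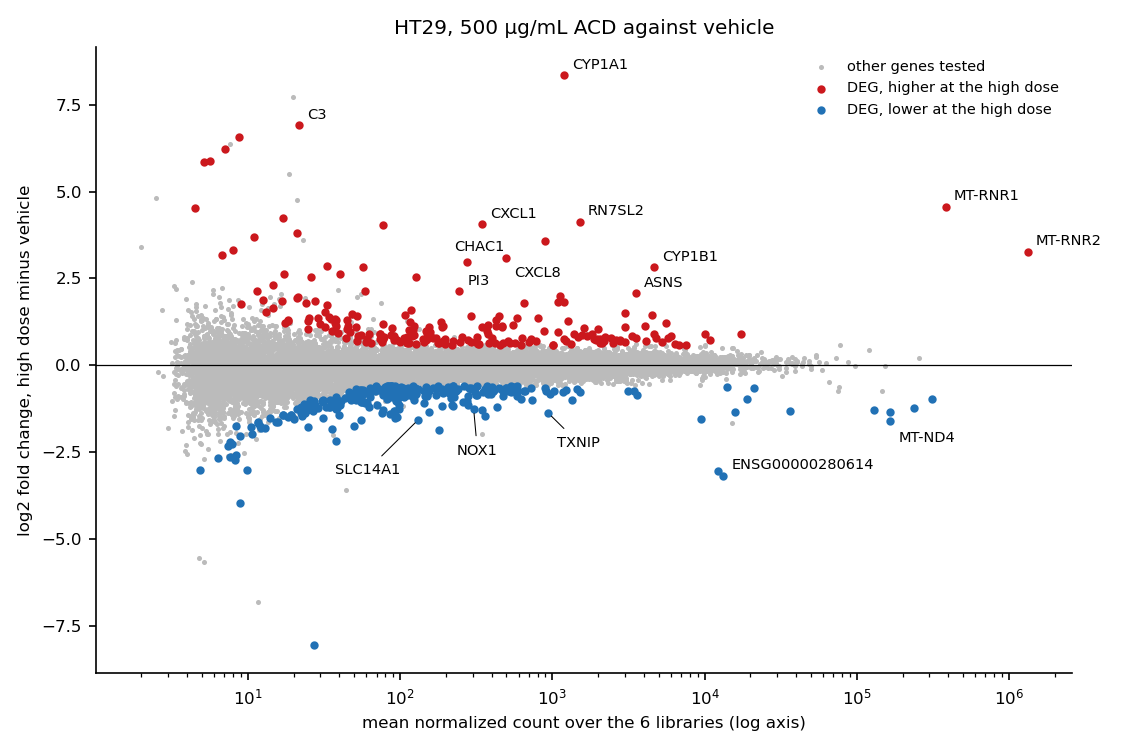
Each point is 1 tested gene in HT29, plotted by its mean normalized count over the 6 libraries (log axis) and its log2 fold change of high dose minus vehicle, with DEGs that rose in red and DEGs that fell in blue. CYP1A1 stands highest among well-counted genes with 8.34, and the mitochondrial ribosomal RNAs MT-RNR1 and MT-RNR2 lie at the right edge with 4.57 and 3.27.

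The largest rise among well-counted genes was that of CYP1A1, and CYP1B1 rose with it. CYP1A1, the classic AhR-induced oxidase (ENSG00000140465, chr15:74719542-74725536), had 2.65, 9.51 and 8.51 normalized counts in the vehicle libraries, and 2232, 2469 and 2451 were reached at the high dose. CYP1B1, a related oxidase with a substantial level without treatment, went from 1058, 1147 and 1253 to 8429.9, 7219 and 8693 normalized counts. All 3 treated libraries stood far above all 3 vehicle libraries for both genes, and the log2 fold changes of DESeq2 were 8.34 ± 0.39 (SE; adjusted p = 2.34e-97) and 2.82 ± 0.15 (adjusted p = 8.5e-72). CYP1A2, the neighbour of CYP1A1 with liver-type expression, had 0 counts in each vehicle library and 3.42 to 4.37 normalized counts at the high dose, and got no adjusted p-value because of its low counts.

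Of 18 tested genes on the list of AhR targets and feedback, 10 rose and none fell, with a median log2 fold change of 0.68 against 0.006 over all genes. For this and the lists below, the shares over all tested genes were 1.27% up and 1.6% down. TIPARP, an ADP-ribosyltransferase that feeds back on the receptor, rose from 1475, 1548 and 1663 to 4216, 4636 and 4580.0 normalized counts (1.52 ± 0.09, adjusted p = 1.63e-59). ALDH3A1, an aldehyde dehydrogenase of the same gene battery, had 501 to 551 normalized counts in vehicle and 1795 to 1966 at the high dose (1.82 ± 0.07, adjusted p = 5.19e-135). NQO1, TXNRD1, UGT1A6, SLC7A5, EREG and PTGS2 made up the rest of the 10, with 0.63 to 1.11. The receptor gene did not pass the test. AHR was at 2398, 2551 and 2764 normalized counts in vehicle and 2657, 2205 and 2589 at the high dose, with a log2 fold change of -0.05 ± 0.08 (adjusted p = 0.854). The AhR repressor AHRR (0.17 ± 0.22, adjusted p = 0.768) and the partner ARNT (0.04 ± 0.11, adjusted p = 0.922) also missed the threshold. Without replicate 2, 10 members rose and none fell.

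ALDH1A3, PTGS2 and CYP1B1-AS1 also rose. ALDH1A3, which makes retinoic acid, had 425, 457 and 464 normalized counts in vehicle and 1672, 1904 and 1785 at the high dose, with a log2 fold change of 1.99 ± 0.11 (adjusted p = 9.5e-77). PTGS2, the inducible cyclooxygenase, went from 335, 381 and 398 to 587, 569 and 577 (0.63 ± 0.11, adjusted p = 2.54e-07). CYP1B1-AS1, antisense to CYP1B1, had a change of 1.58 ± 0.21 (adjusted p = 1.12e-11), and since the strand setting of the counting is not given in the sources used here, its counts cannot be told apart from reads of CYP1B1. Of 24 tested drug-conjugating enzymes and efflux pumps 3 rose, UGT1A6 (0.81), the efflux pump ABCC2 (1.18) and CYP4F3 (1.11). UGT1A6 shares exons with other UGT1A genes and its counts are uncertain to that extent.

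**Figure D2:**
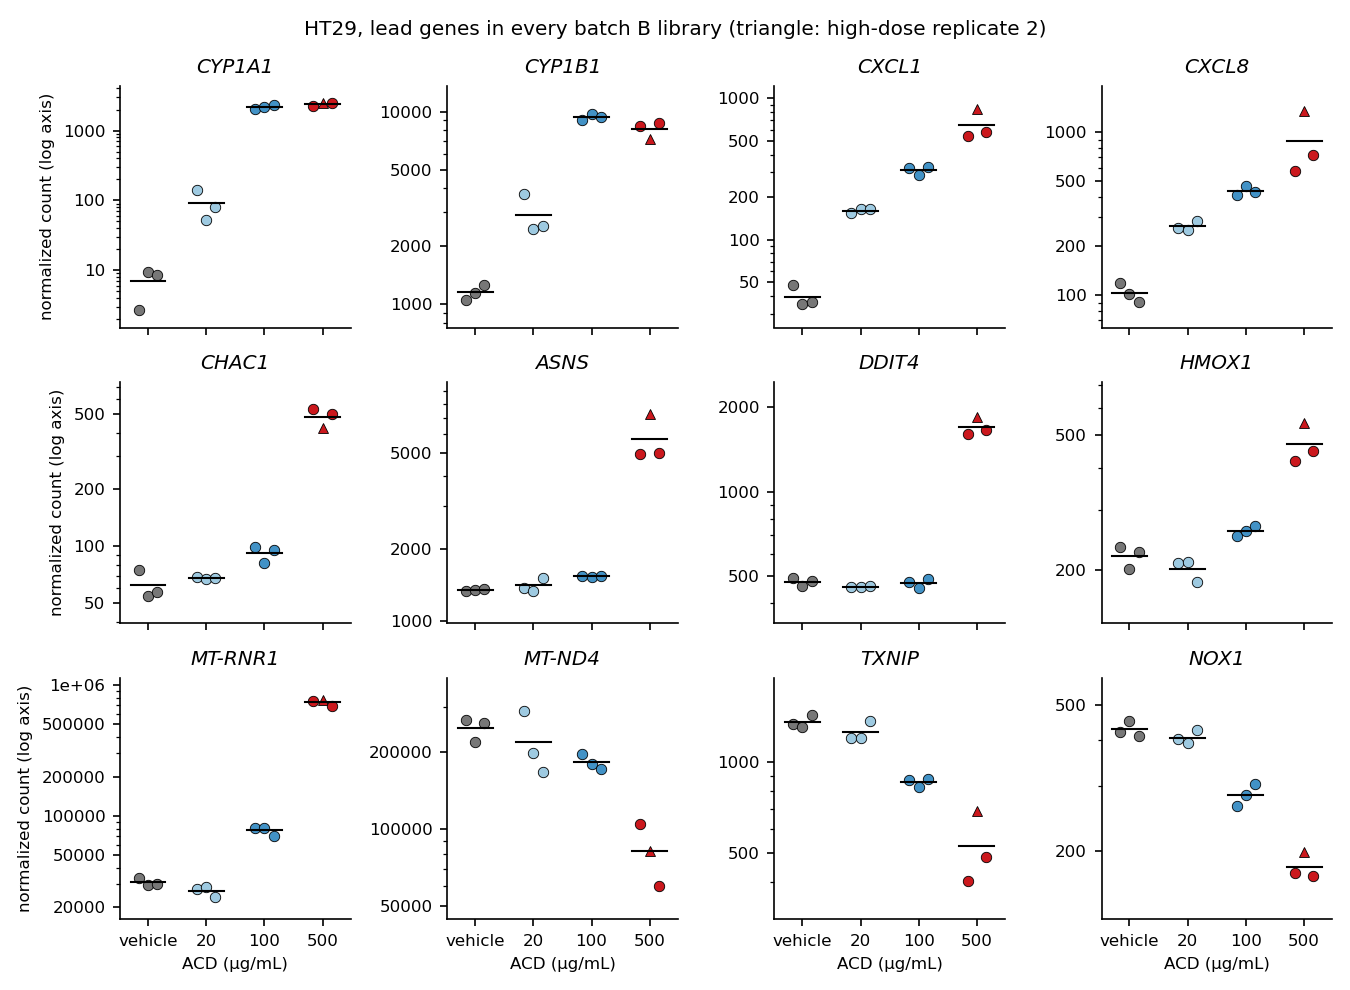
Normalized counts (log axis) of 12 lead genes in every HT29 library of batch B, for vehicle and 20, 100 and 500 µg/mL of ACD, with a triangle for replicate 2 of the high dose and bars for the group means. CYP1A1 and CYP1B1 were about as high at 100 as at 500 µg/mL, whereas CHAC1, ASNS and DDIT4 stood apart from vehicle at 500 µg/mL, with 422 to 530.5, 4952 to 7238 and 1600.2 to 1839 normalized counts.

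Neutrophil-attracting chemokines rose together. CXCL1 had 47.7, 35.1 and 36.2 normalized counts in vehicle and 538, 834 and 577 at the high dose, and CXCL8, the gene of interleukin 8, 119, 101 and 90.4 against 576, 1342 and 728. CCL20, which attracts CCR6-bearing lymphocytes and dendritic cells, had 5.29 to 11.7 normalized counts in vehicle and 108 to 205 at the high dose. Replicate 2 was the highest of the treated libraries for all 3 genes, but the groups did not overlap. The log2 fold changes were 4.05 ± 0.21 (adjusted p = 7.3e-78), 3.09 ± 0.26 (adjusted p = 1.84e-29) and 4.03 ± 0.39 (adjusted p = 7.33e-23), and 3.85, 2.67 and 3.72 without replicate 2.

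In all, 7 of 15 tested chemokine genes rose and none fell, with a median log2 fold change of 0.76 that became 0.50 without replicate 2. CXCL2 (2.54 ± 0.39, adjusted p = 1.33e-08), CXCL3 (2.13 ± 0.29, adjusted p = 2.9e-11) and CXCL6 (2.85 ± 0.43, adjusted p = 3.26e-09) are close relatives of CXCL1, and reads of similar sequence could be split between them. CXCL5 had 0 counts in every vehicle library and 26 counts over the 3 treated libraries, so it was at least 3.64-fold higher against a floor of 3 counts per library. CCL15 lay at 528 to 751 normalized counts in vehicle and at 340 to 663 at the high dose (-0.38 ± 0.23, adjusted p = 0.401), and passed the threshold downwards without replicate 2 (-0.69, adjusted p = 0.00062). The interferon-inducible CXCL10 and CXCL11, with 0.46 and -0.34, did not pass the test (adjusted p = 0.833 and 0.802). Without replicate 2, 6 chemokine genes rose and CCL15 was the 1 that fell, of 9 tested.

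Other NF-kB and innate genes moved less uniformly. Of 28 tested genes for NF-kB subunits, feedback and inflammatory targets 3 rose and 1 fell, with a median log2 fold change of 0.25. With replicate 2 left out, 4 of 26 tested members rose and 1 fell. ICAM1, the adhesion receptor for leukocytes, rose from 87.4, 122 and 119 to 277, 251 and 264 normalized counts (1.25 ± 0.14, adjusted p = 3.46e-16). BIRC3, an inhibitor of apoptosis, rose by 1.09 ± 0.14 (adjusted p = 7.54e-12) and the cytokine gene IL32 by 1.95 ± 0.40 (adjusted p = 7.89e-05), while IL18 had a log2 fold change of -0.69 ± 0.22 (adjusted p = 0.0307) and was called under 12 of 20 alternative settings. REL, an NF-kB subunit, was at 676, 176 and 783 normalized counts in the treated libraries, one of the genes in which replicate 2 was lowest.

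Of 21 tested complement, acute-phase and antimicrobial genes 4 rose and none fell, with a median of 0.36. With replicate 2 left out, 3 of 14 tested members rose and 1 fell. PI3, the epithelial protease inhibitor elafin, had 109.9, 80.5 and 84.0 normalized counts in vehicle and 346, 441 and 411 at the high dose (2.14 ± 0.15, adjusted p = 9.16e-41). C3, the central complement component, had 1 count over the vehicle libraries and 127 over the treated libraries, a ratio of 137 with an exact 95% counting interval of 24.1 to 5450. CFB, which forms the alternative-pathway convertase, rose by 1.08 ± 0.23 (adjusted p = 8.5e-05). The complement regulator CD55 rose by 0.60 ± 0.10 (adjusted p = 2.12e-07) and fell short of the fold threshold without replicate 2, with 0.48. None of 39 interferon-stimulated genes passed the test against vehicle, and their median was -0.19.

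A group of 36 tested amino acid and ER stress genes had 18 members that rose and none that fell, with a median log2 fold change of 0.57. CHAC1, a glutathione-degrading enzyme induced by ATF4, had 75.5, 54.9 and 57.4 normalized counts in vehicle and 530.5, 422 and 502 at the high dose (2.99 ± 0.17, adjusted p = 9.65e-67). ASNS, asparagine synthetase, went from 1336, 1354 and 1367 to 4952, 7238 and 4988 (2.08 ± 0.14, adjusted p = 4.44e-50). DDIT4, an inhibitor of mTORC1 signalling, went from 492.5, 459.5 and 479.8 to 1600.2, 1839 and 1663 (1.83 ± 0.08, adjusted p = 4.93e-112). The vehicle libraries lay close together and below every treated library for all 3 genes.

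The members that rose included enzymes, transporters and regulators of amino acid supply. The serine synthesis enzymes PHGDH and PSAT1 rose by 0.96 ± 0.15 (adjusted p = 5.11e-09) and 1.45 ± 0.08 (adjusted p = 6.66e-66), and the one-carbon enzymes SHMT2 and MTHFD2 by 0.59 ± 0.06 (adjusted p = 1.02e-18) and 0.78 ± 0.12 (adjusted p = 1.98e-08). The transporters SLC7A11, SLC3A2 and SLC38A2 rose by 1.21 ± 0.11, 0.84 ± 0.11 and 0.67 ± 0.07. Among regulators, ATF3 rose from 43.7, 60.0 and 68.1 to 151, 173 and 155 normalized counts (1.45 ± 0.18, adjusted p = 7.7e-13), and TRIB3, SESN2 and DDIT3 by 1.08 ± 0.07, 1.12 ± 0.14 and 0.76 ± 0.15. ATF4 itself rose by 0.59 ± 0.08 (adjusted p = 1.44e-10). ADM2, a peptide hormone gene of the adrenomedullin family outside the list, had 34.4 to 44.7 normalized counts in vehicle and 142 to 271 at the high dose (2.53 ± 0.29, adjusted p = 3.67e-16).

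None of the ER chaperone genes of this list was a DEG. HSPA5, the main ER chaperone, was at 8841, 8922 and 9069 normalized counts in vehicle and 10054, 11942 and 9616 at the high dose, with a log2 fold change of 0.24 ± 0.08 (adjusted p = 0.0438), under the fold threshold. HSP90B1, PDIA4, DNAJB9, SDF2L1 and MANF had log2 fold changes of -0.09 to 0.18 with adjusted p-values of 0.645 to 0.951. XBP1, with 0.39 ± 0.10 (adjusted p = 0.00231), also stayed under the fold threshold. None of 18 tested heat shock protein genes was a DEG (median 0.17).

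Genes of NRF2 and glutathione formed another group without a fall. Of 27 tested members 11 rose and none fell, the median log2 fold change was 0.54, and in 22 members all treated libraries lay above all vehicle libraries. Over all tested genes 1.27% rose, and 10.3% lay wholly above the vehicle. With replicate 2 left out, 14 of 27 tested members rose and none fell, where 1.85% of all tested genes rose. HMOX1, heme oxygenase, had 233, 200.5 and 226 normalized counts in vehicle and 418, 542 and 447 at the high dose (1.09 ± 0.13, adjusted p = 1.58e-15). Both subunits of the enzyme that limits glutathione synthesis rose, GCLC by 0.77 ± 0.06 (adjusted p = 5.25e-39) and GCLM by 0.75 ± 0.09 (adjusted p = 2.26e-13). NQO1, a quinone reductase already among the abundant mRNAs of HT29, went from 12876, 11537 and 12032 to 18738, 29704 and 19135 (0.89 ± 0.15, adjusted p = 5.07e-07). The aldo-keto reductases AKR1B10, AKR1C1, AKR1C2 and AKR1C3 rose by 1.13, 1.37, 1.42 and 1.04, the last 3 being similar in sequence and uncertain where reads were split. SLC7A11, ABCC2, TXNRD1 and NQO1 stand on this list and on others named above. None of 9 tested metallothionein and zinc genes was a DEG.

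**Figure D3:**
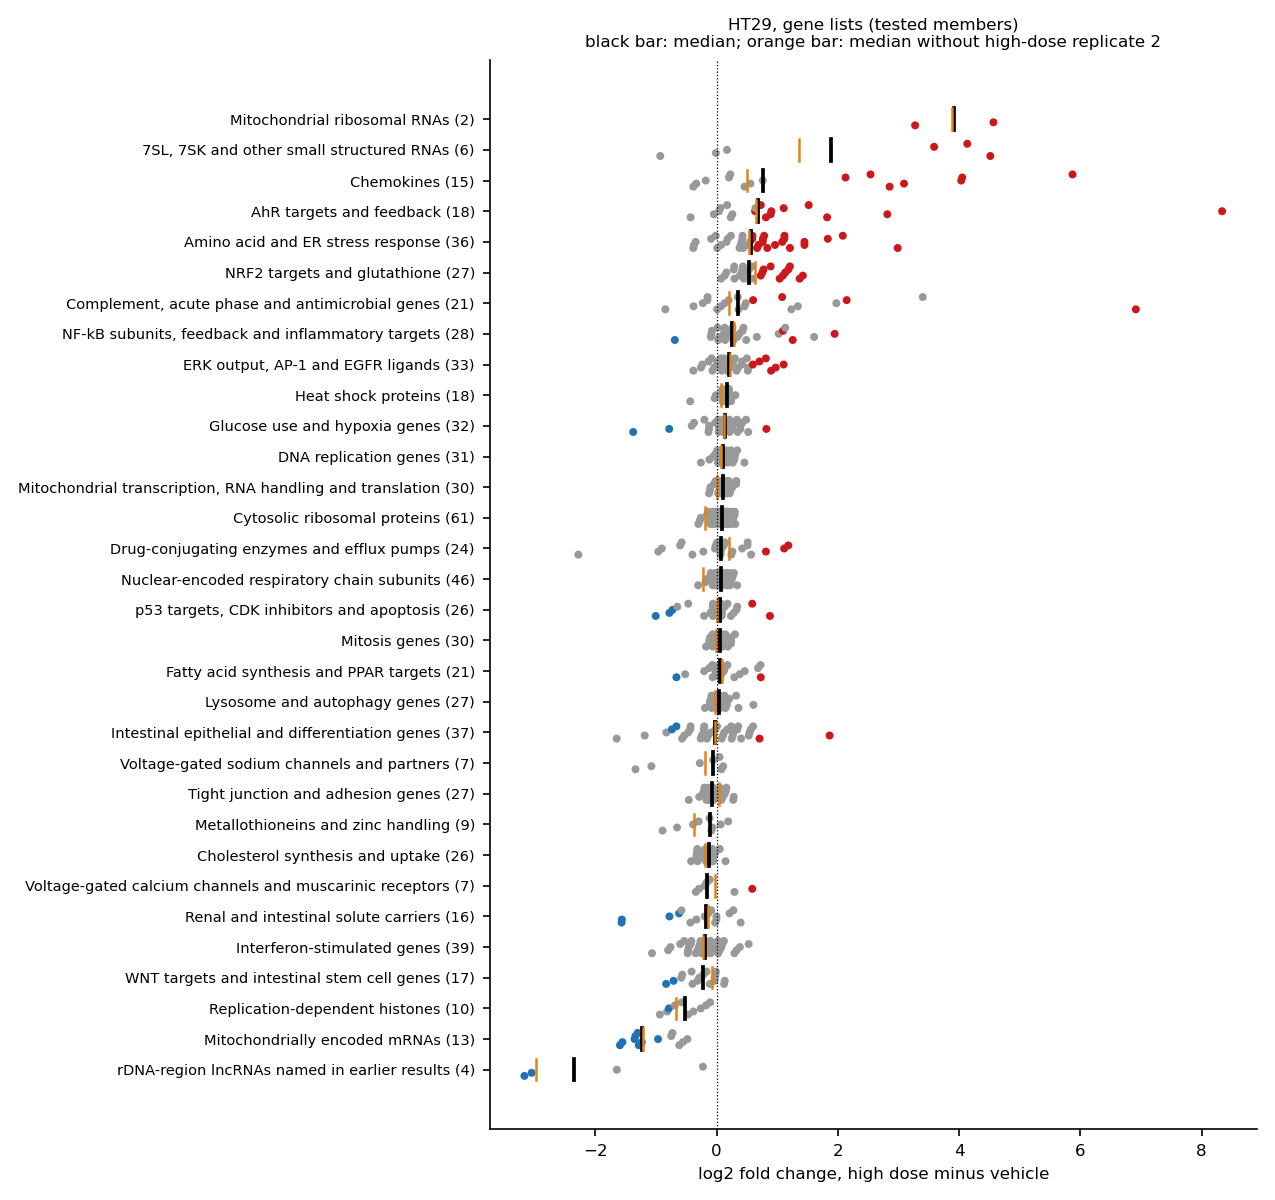
Log2 fold changes (high dose minus vehicle) of the tested members of each gene list, with the number tested in brackets, a black bar at the median and an orange bar at the median without replicate 2 of the high dose. The medians of AhR targets (0.68), chemokines (0.76), amino acid and ER stress genes (0.57) and NRF2 genes (0.54) lay to the right of 0, and that of mitochondrially encoded mRNAs (-1.23) to the left.

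The RNAs of the mitochondrial genome split by kind. The ribosomal RNA MT-RNR1 had 33364, 29622 and 30254 normalized counts in vehicle and 750922, 767085 and 689841 at the high dose, and MT-RNR2 261363, 235620.2 and 246871 against 2504244, 2529945 and 2160565. These are the small and the large RNA of the mitochondrial ribosome, and their log2 fold changes were 4.57 ± 0.09 and 3.27 ± 0.09, the latter with an adjusted p of 3.09e-267. Together they took 1.14% to 1.22% of all counts in vehicle and 11.3% to 12.5% at the high dose. How ribosomal RNA was removed before sequencing is not given in the sources used here, and its part in these values was not tested.

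Of the 13 mRNAs of the same genome 8 fell and none rose, with a median log2 fold change of -1.23, and their share of all counts went from 7.60% to 8.91% in vehicle to 2.76% to 4.07%. With replicate 2 of the high dose left out, 9 of the 13 fell. MT-CO3, a subunit of cytochrome c oxidase, fell from 389633, 310737 and 306892 to 158495, 147930 and 121586 normalized counts (-1.23 ± 0.15, adjusted p = 1.77e-14). MT-CO1 and MT-CO2 of the same complex had -0.97 ± 0.16 (adjusted p = 1.82e-07) and -1.34 ± 0.20 (adjusted p = 4.7e-09), and the ATP synthase subunits MT-ATP6 and MT-ATP8 had -1.28 ± 0.22 (adjusted p = 7.14e-07) and -1.55 ± 0.27 (adjusted p = 6.87e-07). Among complex I subunits MT-ND3, MT-ND4 and MT-ND4L fell by 1.30, 1.60 and 1.35 on the log2 scale. MT-ND1, MT-ND2, MT-ND5, MT-ND6 and MT-CYB had -0.48 to -0.75 with adjusted p-values of 0.054 to 0.596. Overlapping genes such as MT-ATP8 with MT-ATP6 and MT-ND4L with MT-ND4 share reads, which makes their separate values uncertain.

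The nuclear partners of these RNAs did not pass the test. None of 46 tested nuclear-encoded respiratory chain subunits was a DEG, with a median of 0.07 that became -0.22 without replicate 2. ATP5F1B, the catalytic ATP synthase subunit, had 14076, 12963 and 13313 normalized counts in vehicle and 12888, 20886 and 13373 at the high dose, where replicate 2 alone stood above the vehicle. None of 30 tested genes for mitochondrial transcription, RNA handling and translation was a DEG, although LRPPRC, which stabilises mitochondrial mRNAs, had 0.20 ± 0.06 (adjusted p = 0.00832). None of the 61 cytosolic ribosomal protein genes was a DEG, and their median of 0.09 became -0.20 without replicate 2. Without that replicate NDUFA2 of complex I (-0.67, adjusted p = 7.2e-05) and the ribosomal protein gene RPLP1 (-0.59, adjusted p = 0.0194) passed the threshold, 1 member of each list.

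Small structured RNAs and lncRNA genes of repeated loci changed in the treated libraries with wide spread. RN7SL1 and RN7SL2, near-identical genes of the 7SL RNA of the signal recognition particle, had 842, 3515 and 571 and 1682, 5561 and 1320.1 normalized counts at the high dose against 103 to 179 and 116 to 218 in vehicle. Replicate 2 carried the highest values, and without it the log2 fold changes went from 3.59 to 2.37 and from 4.13 to 3.21. ENSG00000280800, a copy of the chromosome 21 lncRNA genes ENSG00000280614 and ENSG00000281181, had 2686, 14852 and 4547 against 20258 to 26897 in vehicle, and its -1.65 ± 0.60 (adjusted p = 0.0731) became -2.67 (adjusted p = 2.43e-09) without replicate 2. The copies ENSG00000280614 and ENSG00000281181 were called, with -3.17 ± 0.28 and -3.05 ± 0.28 (adjusted p = 8.07e-27 and 7.6e-25). They had equal counts in every HT29 library of batch B except vehicle replicate 1 (25980.5 and 20257.5 normalized counts). Their calls are therefore not separate measurements. The changes of RN7SL1, RN7SL2 and ENSG00000280614 were not particular to the high dose. Against vehicle, RN7SL2 had 3.69 at the low and 3.51 at the medium dose, and RN7SL1 had 2.68 and 2.53. For ENSG00000280614 these values were -2.79 and -3.04. Counts of such copies depend on how shared reads were divided. Of 10 tested replication-dependent histone genes 1 fell, H2AC6 (-0.79 ± 0.18, adjusted p = 0.00037), and the median of -0.52 became -0.67 without replicate 2, when H2AC11 also fell (-1.35, adjusted p = 0.0266).

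TXNIP and NOX1 were among the nuclear genes that fell. TXNIP, a glucose-induced inhibitor of glucose uptake, had 1334, 1311 and 1431 normalized counts in vehicle and 403, 691 and 487 at the high dose (-1.38 ± 0.16, adjusted p = 3.46e-16). Its relative ARRDC4 fell by 0.78 ± 0.15 on the log2 scale (adjusted p = 9.77e-06). NOX1, the superoxide-producing oxidase of colon epithelium, went from 422, 451 and 409.6 to 174, 198 and 171 (-1.26 ± 0.11, adjusted p = 9.54e-28). The treated and vehicle libraries did not overlap for TXNIP or NOX1, which the rule for naming genes by size of change required. Of 32 tested glucose use and hypoxia genes TXNIP and ARRDC4 were the 2 that fell, and VEGFA, the angiogenic growth factor, was the 1 that rose, by 0.82 ± 0.10 (adjusted p = 6.28e-13).

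Several solute carriers fell. Of 16 tested renal and intestinal solute carriers 4 fell and none rose. SLC3A1, the heavy chain of the cystine transporter, fell from 76.8, 76.1 and 93.6 to 31.6, 29.1 and 23.9 normalized counts (-1.56 ± 0.25, adjusted p = 8.4e-08), and SLC14A1, a urea transporter, from 212, 181 and 199 to 64.4, 61.5 and 70.2 (-1.57 ± 0.16, adjusted p = 1.46e-19). SLC5A1, the sodium-glucose cotransporter of the gut, had -0.78 ± 0.11 (adjusted p = 7.32e-11). SLC12A2, the basolateral chloride importer, had -0.62 ± 0.10 (adjusted p = 2.73e-08) and -0.52 without replicate 2, under the fold threshold. KCNJ3, an inward-rectifier potassium channel, had 285, 315 and 335 normalized counts in vehicle and 165, 76.9 and 164 at the high dose (-1.17 ± 0.21, adjusted p = 2.88e-06).

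Some genes of epithelial identity changed, in both directions. Of 37 tested intestinal epithelial and differentiation genes 2 rose and 2 fell, with a median of -0.02. This is 10.8% of the tested members, against 2.88% of all tested genes. The surface glycoprotein genes CEACAM7 and CEACAM5 rose by 1.86 ± 0.34 (adjusted p = 3.38e-06) and 0.71 ± 0.17 (adjusted p = 0.000861), while the mucus-associated genes TFF3 and FCGBP had -0.66 ± 0.19 (adjusted p = 0.0101) and -0.74 ± 0.22 (adjusted p = 0.0149). FCGBP had 646, 814 and 761 normalized counts in vehicle and 506.5, 259.8 and 556 with the extract, and its change was -0.48 without replicate 2. Without that replicate 4 of 31 tested members rose and 4 fell, where 4.1% of all tested genes were DEGs. The mucin genes MUC5AC (0.97) and MUC17 (0.61) joined those that rose, and KRT23 (-0.78), CA2 (-0.59) and AGR2 (-0.85) those that fell. The lncRNA gene LINC00261 fell by 1.14 ± 0.14 on the log2 scale (adjusted p = 7.06e-14). CD200, a surface ligand that restrains myeloid cells, TPPP3, a tubulin-binding protein, CHST3, a sulfotransferase of chondroitin, and PGM2L1, a sugar phosphate enzyme, had -1.33, -1.19, -1.28 and -1.17.

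Of 33 tested genes for ERK output, AP-1 factors and EGFR ligands 6 rose and none fell, with a median of 0.21. The EGFR ligands EREG and AREG rose from 1824, 1866 and 2065 to 4403, 3776 and 4197 normalized counts (1.11 ± 0.10, adjusted p = 2.02e-24) and from 1139, 905 and 879 to 1578, 2308 and 1564 (0.90 ± 0.16, adjusted p = 1.27e-06). DUSP5, a phosphatase of ERK, rose by 0.97 ± 0.14 (adjusted p = 2.84e-10). EGR1 passed the test with 0.60 ± 0.20 (adjusted p = 0.0395), but replicate 2 was at 774 normalized counts, below every vehicle library (792 to 812), while replicates 1 and 3 were at 1308 and 1552. Of 26 tested p53 targets, CDK inhibitors and apoptosis genes 2 rose and 3 fell. BTG2, an antiproliferative p53 target, fell by 1.01 ± 0.09 on the log2 scale (adjusted p = 4.14e-26), whereas CDKN1A, the CDK inhibitor p21, was called with 0.59 ± 0.11 (adjusted p = 3.06e-06) and under 8 of 20 alternative settings. Of 17 tested WNT targets and stem cell genes DKK1, a secreted WNT inhibitor, and EPHB3, a crypt receptor, fell, with -0.83 ± 0.19 (adjusted p = 0.000409) and -0.71 ± 0.12 (adjusted p = 9.91e-08).

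Cell cycle and cholesterol synthesis genes were not called. None of 30 mitosis genes, 31 DNA replication genes, 26 cholesterol genes, 27 tight junction and adhesion genes, 27 lysosome and autophagy genes or 7 tested sodium channel genes was a DEG, and their medians lay between -0.13 and 0.11. TOP2A, the mitotic topoisomerase, had 11112, 11474 and 11439 normalized counts in vehicle and 11553, 11569.6 and 11618 at the high dose (0.03 ± 0.04, adjusted p = 0.775). MKI67, a proliferation marker with a long mRNA, had 18724, 7216 and 17409 at the high dose and 12994 to 16901 in vehicle (-0.11 ± 0.27, adjusted p = 0.902). Of 21 tested fatty acid and PPAR genes 1 rose and 1 fell, and ME1, which makes NADPH, rose by 0.73 ± 0.06 (adjusted p = 2.59e-29). Among 7 tested calcium channel and muscarinic receptor genes CACNB1 had 0.59 ± 0.13 (adjusted p = 0.000215), at the fold threshold, and was not called by edgeR.

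To see which of these changes belonged to the high dose, it was compared with the medium dose directly, without the vehicle. This contrast had 103 DEGs (0.686% of 15018 tested), 57 higher (0.38%) and 46 lower (0.306%) at the high dose, and 82 of them were also DEGs against vehicle, 52 up and 30 down in both. In the amino acid and ER stress list 14 members were higher at 500 than at 100 µg/mL. CHAC1, DDIT4 and ASNS differed between the doses by 2.41 (adjusted p = 2.7e-50), 1.84 (adjusted p = 1.79e-114) and 1.89 (adjusted p = 3.59e-41), and their medium-dose changes against vehicle were 0.57, -0.01 and 0.19. MT-RNR1 and MT-RNR2 differed by 3.25 ± 0.09 and 2.51 ± 0.09 (adjusted p = 2.12e-279 and 3.26e-156). Both had also risen at the medium dose against vehicle, by 1.32 and 0.77 (adjusted p = 1.05e-44 and 1.44e-13), past the thresholds.

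Of the 18 tested members of the AhR list only SLC7A5 was called between the doses (0.68, adjusted p = 0.00936), and CYP1A1, CYP1B1 and TIPARP had differences of 0.13, -0.21 and 0.08 (adjusted p = 0.868, 0.687 and 0.774). For these genes the medium-dose means of 2183, 9364 and 4228 normalized counts stood beside high-dose means of 2384, 8114 and 4477. ALDH3A1, also on the list, had a difference of 0.53 (adjusted p = 1.45e-12), under the fold threshold. ALDH1A3 had a difference of -0.44 on the log2 scale (adjusted p = 0.00112), under the fold threshold as well. Of the chemokines CXCL1, CXCL8, CXCL3 and CCL20 were higher at the high dose, by 1.05, 1.01, 0.88 and 1.35, and of the NRF2 list HMOX1, AKR1C1, AKR1C2 and SLC7A11, by 0.84, 0.88, 0.83 and 0.59. CXCL1 and CXCL8 had already risen below the high dose, past the thresholds. Their changes against vehicle were 3.01 and 2.08 at the medium and 2.04 and 1.35 at the low dose.

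Among mitochondrial mRNAs 10 of 13 were lower at the high than at the medium dose, with differences of -0.85 to -1.35. MT-ND1 and MT-ND2 had medium-dose means of 143067 and 145569 normalized counts, above their vehicle libraries (72667 to 108775 and 82519 to 98104), and 46860 to 70494 and 53106 to 69886 at the high dose. Their differences between the doses were -1.35 (adjusted p = 9.48e-05) and -1.27 (adjusted p = 2.29e-06). The pseudogene MTND2P28, similar in sequence to MT-ND2, had -1.34 (adjusted p = 3.33e-09) and is uncertain where reads were shared. Among interferon-stimulated genes 6 of 39 were lower at the high than at the medium dose: XAF1, MX1, DDX60, IRF9, HERC6 and SAMD9, with differences of -0.62 to -1.82.

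The response of HT29 was then set against that of SW1783 at the same dose by an interaction test on 24 libraries, which gave 2686 DEGs, 15.1% of 17771 tested genes, with 8.04% more positive and 7.07% more negative in HT29. Of the 479 DEGs of HT29, 185 (38.6%) were among them: 74 rose in HT29 with a more positive change than in SW1783, and 65 fell with a more negative one. Of 19 AhR-list members in this test, 8 were more positive in HT29 and 2, SLC7A5 (-0.73, adjusted p = 0.000933) and AHR, more negative. CYP1B1 had 3587 ± 21.3 (SD, n = 3) normalized counts in vehicle-treated SW1783 and 1500.0 ± 58.0 at the high dose, a change opposite to that in HT29, with a difference of 4.09 ± 0.16 (adjusted p = 2.78e-138). TIPARP, ALDH1A3 (not on the list) and ALDH3A1 differed by 1.70, 1.91 and 2.14 in the same direction (adjusted p = 4.81e-60, 1.65e-107 and 4.48e-06).

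The amino acid stress group was called in both lines and differed in size. In SW1783, where 8.63% of all tested genes rose and 9.55% fell, 30 of 36 tested members rose with a median of 1.52, and in 22 of 37 members the interaction was more negative in HT29. ATF3 reached 1078 ± 47.6 (SD, n = 3) normalized counts in SW1783 from 41.4 ± 2.23, and its change was smaller in HT29 by a difference of -3.24 ± 0.23 on the log2 scale (adjusted p = 2.75e-44). For ASNS the difference was -0.75 ± 0.14 (adjusted p = 7.44e-07). Mitosis and replication genes, not called in HT29, fell in SW1783 in 23 of 30 and 19 of 31 members, and the interaction was called in 27 of the 30 and 21 of the 31. Among mitochondrial mRNAs none of 13 was a DEG in SW1783 and 8 had a called interaction, all more negative in HT29. For MT-RNR2 the interaction was 0.76 ± 0.10 (adjusted p = 6.39e-13), and for MT-RNR1 0.31 ± 0.10 (adjusted p = 0.0105), under the fold threshold.

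**Figure D4:**
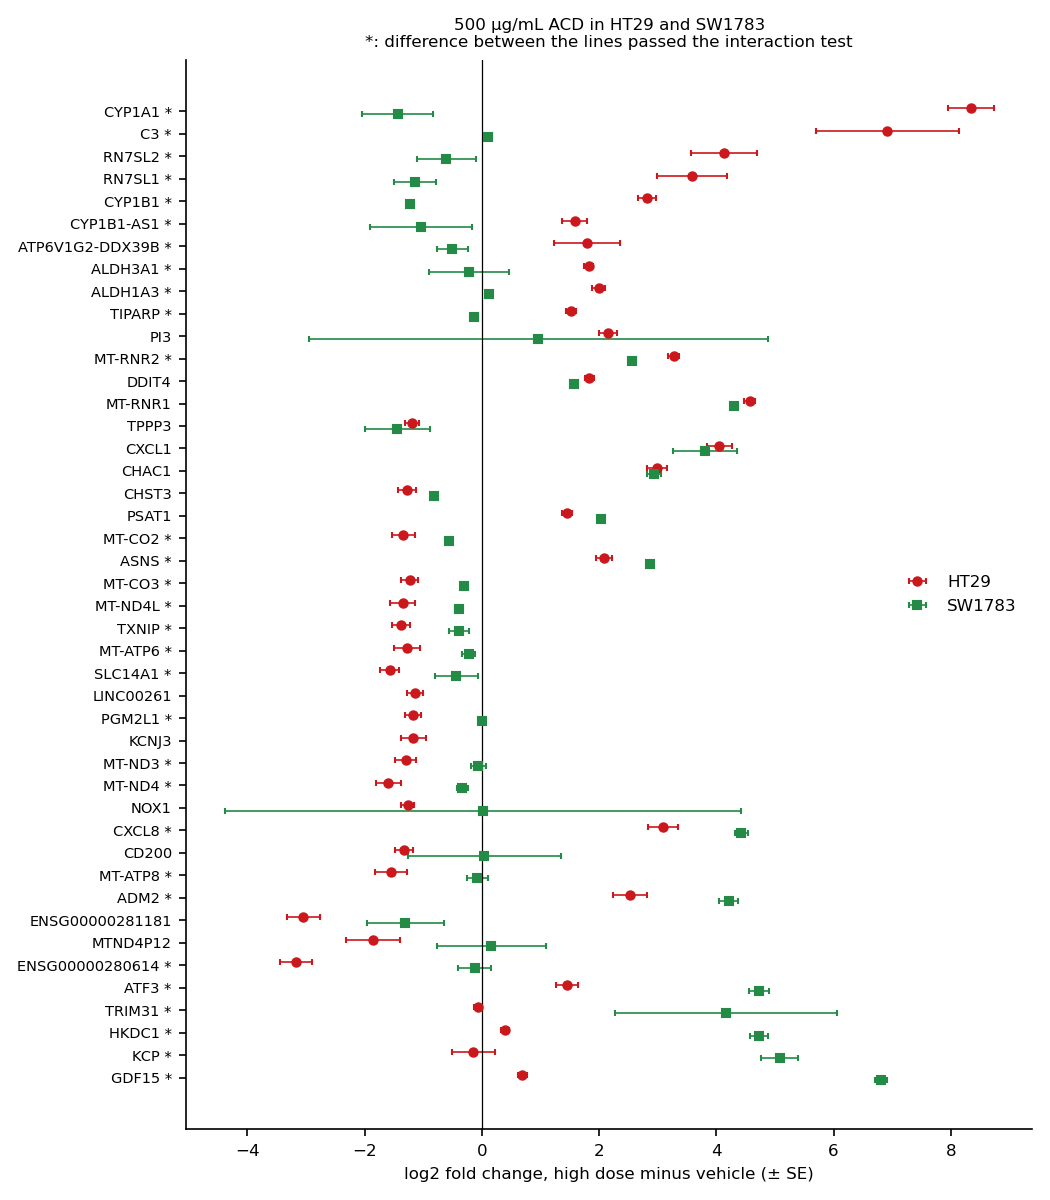
Log2 fold changes ± SE (high dose minus vehicle) of the genes named for their change in HT29 or for the difference between the lines, in HT29 (red circles) and the same genes in SW1783 (green squares), with an asterisk where the difference between the lines passed the interaction test. CYP1A1, CYP1B1 and TIPARP lie far to the right in HT29 and at or left of 0 in SW1783 (-1.44, -1.23 and -0.14), and genes with no counts in SW1783 have no square.

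Replicate 2 of the high dose is described here because it is 1 of the 3 treated libraries in every comparison above. Over 10940 well-counted genes, 2527 (23.1%) differed by more than 1.5-fold from the mean of replicates 1 and 3, and the SD of these log2 ratios was 0.51, against 0.11 to 0.31 and 16 to 390 genes in the other 11 HT29 libraries of the batch. The chi-square statistic of the counts per degree of freedom was 60.9 against replicate 1 and 56.6 against replicate 3, and 6.5 between replicates 1 and 3. The ratios varied with transcript length. Their median was 0.55 for transcripts under 1 kilobase and -0.51 for those of 8 kilobases or more. Spearman's correlation with length across genes, which are not independent replicates, was -0.56. Vehicle replicate 1 had a correlation of -0.65 at a smaller SD of 0.24, so shorter transcripts were relatively higher in it as well.

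**Figure D5:**
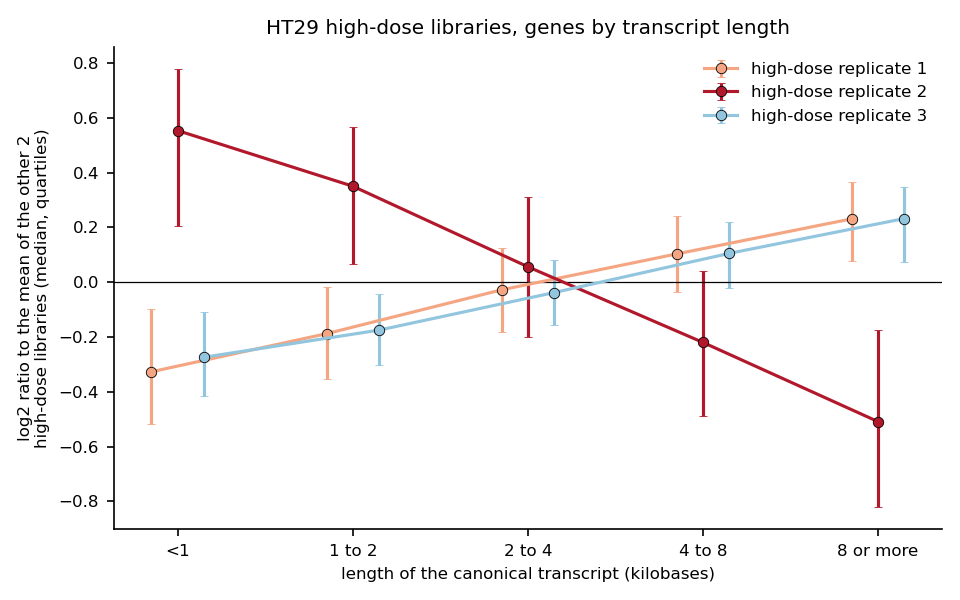
Median log2 ratio of each high-dose library to the mean of the other 2, with bars for the quartiles, by length of the canonical transcript in kilobases. Replicate 2 goes from 0.55 in the shortest to -0.51 in the longest class, and replicates 1 and 3, whose reference contains replicate 2 and which therefore mirror it in part by construction, go from -0.33 to 0.23 and from -0.27 to 0.23.

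Single genes marked this library. Among well-counted genes, those relatively highest in replicate 2 included the readthrough gene MICOS10-NBL1, with 501 normalized counts against 32.8 and 57.5, and the antisense gene CERS6-AS1, with 1002 against 303 and 143. Those lowest in it included REL and the pseudogenes ZBTB45P1 (0 against 231 and 190), TCAF1P1 and CCDC144BP. Counts of such loci depend on the division of shared reads. With the length trend removed from the log ratios, 467 genes were DEGs, of which 410 were among the 479. The part of RNA quality or library preparation in this pattern was not tested.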

How the data were processed

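RNA-seq libraries were prepared from total RNA of HT29 cells with a directional mRNA kit and sequenced as 100 bp paired-end reads. According to the submitters' processing notes, reads were checked with FastQC 0.11.9, trimmed with Trim Galore 0.6.5, aligned to GRCh38 with STAR 2.7.3a and quantified with RSEM 1.3.3. The study's methods name other versions of some of these tools and give the build also as hg19. The authors deposited expected counts per gene, which were not normalized. Of these values 8.84% were not whole, and they were rounded to whole numbers here. All columns of the table were assigned to samples by their labels. Positions of genes were taken from GENCODE v44 (GRCh38).

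Groups followed the labels. The 12 HT29 libraries of batch B were fitted together with DESeq2 1.42.0 in R 4.3.3, and high dose and vehicle were compared by a two-sided Wald test with Benjamini-Hochberg adjustment over all genes tested. Genes with an adjusted p-value under 0.05 and a change over 1.5-fold were called differentially expressed (DEGs). High against medium dose used the same fit, and the difference between HT29 and SW1783 was tested as an interaction on the 24 libraries of batch B. Normalized counts are counts divided by DESeq2's size factors, and errors of log2 fold changes are standard errors. A group of 3 libraries against 3 cannot give an exact permutation p-value under 0.1, so single-gene permutation tests were not made. The count of 0 was read as at most 3 counts, which cover counting error only.

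The genes named were the 20 largest changes of each sign among DEGs with a mean of 100 or more normalized counts and groups that did not overlap, up to 6 DEGs by size per gene list (or the 2 most abundant members where a list had none), the 4 largest of each sign between doses and between lines, and the 8 highest and 8 lowest ratios in replicate 2 of the high dose. For genes named by size of change, groups that do not overlap were a condition of naming and are no added evidence. Other members of a list are named to show its composition. Some genes that met this rule are not reported here. The comparison, the gene lists and the motifs were chosen with earlier results of these data known, so counts over lists are descriptions and no test was made over a list. Of 912 list entries 6 are not in the table. Promoter windows are those of RefSeq.

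Alternatives were edgeR 4.0.16, limma 3.58.1 with voom and quality weights, other scalings and filters, other thresholds, a replicate block, only the groups compared, the vehicle libraries of batch A alone or summed with batch B, each library left out in turn and, added after the data had been seen, removal of length and GC trends and edgeR or limma without replicate 2 of the high dose. The fits were tested on simulated data for this comparison, run on 60675 genes: DESeq2 recovered 50 of 50 genes changed upwards 2-fold and 48 of 50 changed downwards 2-fold, with 8 false calls. The simulated counts had the same spread setting for every gene and library. They held no length trend and no library set apart like replicate 2 of the high dose. Recovery and false calls under the conditions of the real libraries were therefore not tested. For genes with a mean of 100 or more normalized counts the median standard error was 0.12 on the log2 scale.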

Additional observations from a re-analysis of the deposited data

Results flagged for a closer look

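The results below were singled out because the change at the high dose differed between HT29 and SW1783 in the interaction test of DESeq2, which called 2686 genes in all. Values are differences of log2 fold changes, HT29 minus SW1783. Of the 40 genes named for the size of their change in HT29, 25 had a called interaction, with the change in HT29 more positive for 10 and more negative for 15. No explanation was tested for any of them.

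Among genes that rose in HT29, the difference was 9.82 for CYP1A1, 4.09 for CYP1B1, 2.67 for CYP1B1-AS1, 1.70 for TIPARP, 1.91 for ALDH1A3 and 2.14 for ALDH3A1. CYP1B1-AS1 and ALDH1A3 are not on the list of AhR targets, and the other 4 are. CYP1A1, CYP1B1-AS1 and ALDH3A1 had few counts in SW1783, so their changes there are poorly measured. Their means were 15.4, 7.8 and 9.3 normalized counts in vehicle and 5.6, 3.7 and 8.1 at the high dose. For RN7SL2 and RN7SL1, copies of the 7SL RNA gene with uncertain counts, the difference was 4.78 and 4.76. It was 0.76 for MT-RNR2 and 2.35 for the readthrough gene ATP6V1G2-DDX39B. ATP6V1G2-DDX39B had 392, 366 and 117 normalized counts in the vehicle libraries of HT29 and 1404, 832.5 and 806 at the high dose, and was called under 18 of 20 alternative settings. C3, counted once in the vehicle libraries of HT29 and at 1146 normalized counts in vehicle-treated SW1783, had a difference of 6.88, a fitted value that depends on how the near-absent vehicle level is estimated.

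Other genes rose in both lines and less in HT29. The difference was -1.30 for CXCL8, -1.63 for ADM2, -0.75 for ASNS and -3.24 for ATF3. For GDF15, a stress cytokine that rose by 0.69 ± 0.07 in HT29 (adjusted p = 3.08e-18), it was -6.08, with a change of 6.81 in SW1783.

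Some genes rose in SW1783 and did not pass the thresholds in HT29. The difference was -5.19 for KCP, a secreted regulator of BMP signalling at 14.2 to 29.5 normalized counts in these HT29 libraries, and -4.30 for HKDC1, a hexokinase-like gene with 0.39 ± 0.07 in HT29. For TRIM31, a ubiquitin ligase at 2719 to 3130.0 normalized counts in these HT29 libraries, the fitted difference was -4.21, but SW1783 had 0 counts in vehicle and 3.41 normalized counts at the high dose, so the value is no measure of size.

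Among genes that fell in HT29, the difference was -1.22 for MT-ND4, -0.93 for MT-ND4L, -1.20 for MT-ND3, -1.44 for MT-ATP8, -1.02 for MT-ATP6, -0.74 for MT-CO2 and -0.89 for MT-CO3. It was -3.01 for ENSG00000280614, -1.11 for SLC14A1, -0.95 for TXNIP and -1.13 for PGM2L1.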

How the results depend on the processing

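The number of DEGs at the high dose, 479, depended on the tool and threshold. It was 1017 with limma-voom and quality weights (402 up, 615 down), which gave replicate 2 of the high dose a weight of 0.13, 300 with only the groups compared, 1252 without the fold threshold and 209 over 2-fold. Without replicate 2 it was 989 with edgeR and 1119 with limma-voom. It was 565 with the batch A vehicle, which may not be independent of batch B, and 529 with the vehicles of both batches summed. It was 495 with edgeR on all libraries, and 363 (without vehicle replicate 2) to 569 (without high-dose replicate 2) with a library left out. The share of DEGs that rose, 44.3%, was 53% with only the groups compared and 52.6% without the fold threshold. The contrast of high and medium dose, with 103 DEGs, had 155 with limma-voom, 251 without the fold threshold, 36 over 2-fold and 77 to 115 with a library left out. The interaction, with 2686, had 5103 without the fold threshold, 1232 over 2-fold and 2522 to 2810 with a library left out. Of 1712 values of the 88 named DEGs under 20 alternatives, 1629 stayed past the threshold, 83 did not and 0 changed direction, and 74 of the 88 passed under every alternative that gave a value.

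A replicate block gave 395 DEGs (183 up, 212 down), 105 between doses and 2574 for the interaction. Whether equal numbers in the labels pair high-dose with vehicle libraries could not be decided. Deviations of same-numbered high-dose and vehicle libraries correlated at -0.45, -0.47 and 0.35, and those of differently numbered ones at -0.47 to 0.51. The deviations also varied with transcript length (Spearman's correlation -0.65 in vehicle replicate 1 and -0.56 in high-dose replicate 2), which can hide or mimic a pairing.

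Depth limited genes such as CXCL5, C3 and RN7SL3, with few or 0 counts in vehicle, to bounds or counting intervals.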

Other observations

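The 3 genes IL17C, MIR3142HG and ARAP1-AS1, outside the lists, were noticed after the values had been seen and are given as values. IL17C, a cytokine gene of epithelial cells (chr16:88638572-88640468), had raw counts of 1, 2 and 2 in vehicle and of 24, 7 and 31 after the high dose, a ratio of 13.4 with an exact 95% counting interval of 5.43 to 42.6, and normalized counts of 4.16 ± 1.44 and 7.14 ± 1.36 (SD, n = 3) at the low and medium dose. MIR3142HG, a microRNA host gene (chr5:160438594-160487426), had 0 counts in every vehicle library and 11, 10 and 18 at the high dose, so it was at least 4.55-fold higher against a floor of 3 counts per library. It had 4 to 7 counts per library at the low dose and 9 to 13 at the medium dose. ARAP1-AS1, a lncRNA gene antisense to ARAP1 (chr11:72685075-72693808), had 78, 43 and 27 counts in vehicle and 0 in all 3 treated libraries, at least 15.4-fold lower, and 21, 6 and 15 at the medium but 0, 2 and 0 at the low dose.

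The batch A vehicle libraries of HT29, used here only in alternative settings, resembled batch B vehicle libraries of the same number. The chi-square statistic per degree of freedom was 1.24 to 1.44 for the same number and 2.98 to 14.7 for different numbers. The batch A vehicle may therefore not be an independent control.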
